A study of Mus musculus with 10 samples.

Results

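The genes described here are the protein-coding Hox genes of the clusters a, b, c and d, chosen by name: 38 genes out of 48974 annotated genes with a place in the deposited counts. They comprise 10 Hoxa genes, 10 Hoxb genes, 9 Hoxc genes and 9 Hoxd genes, and they fall into paralog groups 1 to 13. A paralog group holds the genes at the same position in the different clusters. No measured value served as a criterion, but earlier results of these data were known when the genes were chosen.

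Hox genes encode homeodomain transcription factors that lie side by side in clusters. In the embryo they are activated in their order along the chromosome, so that the low-numbered genes are active from the hindbrain caudally and the high-numbered genes only in the caudal spinal cord. In spinal motor neurons (MNs) this code sets column and pool identity: factors of groups 4 to 8 act at the brachial level, Hoxc9 at the thoracic level, and factors of group 10 and beyond at the lumbar level. The Hox proteins bind DNA together with the PBC and Meis families of homeodomain cofactors.

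The study compared YFP-positive cells sorted from spinal cords of embryos at e10.5, with 5 control samples and 5 samples of the conditional double knockout of the Onecut genes Oc1 and Oc2 (cdKO), to find genes downstream of the OC factors in MNs. All 10 samples carried 1 copy each of Olig2-Cre and Rosa26R-YFP (Olig2-Cre+/-, Rosa26R-YFP+/-). The controls were Oc1+/Flox and Oc2+/Flox, and the cdKO samples were Oc1-/Flox and Oc2-/Flox. Olig2-Cre marks the MN progenitor lineage, and the study describes YFP along the whole spinal cord and in the brain, and in V3 interneurons. The labels do not give the spinal level that was dissected, and they do not say whether a sample was 1 embryo or a pool, so p-values measure the spread between these samples. In bulk RNA, fewer cells of a rostrocaudal level and less RNA per cell cannot be told apart.

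Between 63932395 and 107709534 counts were assigned per sample. The counts in the first 2000 bases of Onecut1 (Oc1) were 125, 80, 205, 210 and 63 in controls 1 to 5 and 0, 17, 0, 3 and 0 in cdKO 1 to 5, so that 4 cdKO samples held at most 3 counts there and cdKO 2 held 17. Onecut3 (Oc3), the other member of the family, was 0.677, 0.371, 0.327, 0.525 and 0.527 CPM in controls 1 to 5 and 0.0378, 0.0118, 0.0122, 0 and 0 CPM in cdKO 1 to 5, and its groups did not overlap. The fitted difference of Oc3 was -5.08 ± 0.76 (SE) on the log2 scale (unadjusted p = 1.25e-05, adjusted p = 0.1115, edgeR). That of Oc1 as a whole gene was -1.11 ± 0.46 (SE) (unadjusted p = 0.0294, adjusted p = 0.937, edgeR). Onecut2 as a whole gene was 0.979 to 9.32 CPM in the controls and 1.33 to 19.1 CPM in the cdKO samples. The study describes the Oc2 RNA it detected as truncated transcripts of the mutant gene, without a functional peptide. The MN marker Isl1 was 251, 134, 206, 180 and 344 CPM in controls 1 to 5 and 94.97, 163, 96.9, 158 and 117 CPM in cdKO 1 to 5, with a fitted difference of -0.83 ± 0.31 (SE) on the log2 scale (unadjusted p = 0.0180, adjusted p = 0.937, edgeR). The library of cdKO 5 stood apart: 198569 of its exon bins were not empty, where the other 9 libraries had 243970 to 271591, and its TMM scaling factor was 0.7124 against 0.9467 to 1.1666.

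Levels are given as CPM, counts scaled to the sequencing depth, on TMM-scaled library sizes. A level that is compared between genes is given as CPM per kb of counted exon. Differences are log2 fold changes of cdKO over control from edgeR's quasi-likelihood test on all 17859 genes that passed the filter on low counts, with p-values adjusted over those genes (Benjamini-Hochberg). Of the 38 Hox genes, 34 passed the filter. The 3 counts taken as the limit of detection correspond to 0.0285 to 0.0587 CPM per library, and such limits cover counting error only.

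The results turn on 2 places in the clusters, and their sequences are shown here. The first is the step between Hoxd8, which was present in all samples, and its neighbours Hoxd9 and Hoxd10, which were near 0 in 2 controls. The 300 bases around the start of each gene (250 before and 50 after) come from RefSeq on GRCm38.p6, plus strand, at chr2:74704365-74704664 for Hoxd8, chr2:74697513-74697812 for Hoxd9 and chr2:74691641-74691940 for Hoxd10. Capitals mark a match to ATTGAT, the core letters of an OC site, on either strand.
Hoxd8: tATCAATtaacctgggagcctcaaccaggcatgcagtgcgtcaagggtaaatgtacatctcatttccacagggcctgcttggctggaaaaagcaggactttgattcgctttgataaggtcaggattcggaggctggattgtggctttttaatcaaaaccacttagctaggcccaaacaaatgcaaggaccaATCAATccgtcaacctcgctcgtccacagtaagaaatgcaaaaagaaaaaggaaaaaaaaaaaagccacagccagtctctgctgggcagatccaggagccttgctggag
Hoxd9: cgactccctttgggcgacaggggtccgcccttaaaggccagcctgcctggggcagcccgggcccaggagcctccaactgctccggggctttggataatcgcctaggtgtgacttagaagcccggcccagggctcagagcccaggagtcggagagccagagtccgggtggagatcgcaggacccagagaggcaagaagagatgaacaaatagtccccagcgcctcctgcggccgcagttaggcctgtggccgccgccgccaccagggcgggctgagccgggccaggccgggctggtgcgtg
Hoxd10: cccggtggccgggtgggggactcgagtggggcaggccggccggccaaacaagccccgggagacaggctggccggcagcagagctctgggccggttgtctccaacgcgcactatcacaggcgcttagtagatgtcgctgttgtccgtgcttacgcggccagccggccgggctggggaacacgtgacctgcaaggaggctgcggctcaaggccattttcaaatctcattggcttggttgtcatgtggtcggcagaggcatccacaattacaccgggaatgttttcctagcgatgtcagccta
The Hoxd8 promoter held 2 matches, and the promoters of Hoxd9 and Hoxd10 held 0. None of the 3 held the Cdx core TTTATG, the Meis core TGACAG or the Pbx-Hox motif TGATNNAT on either strand. The GC content was 46.7% for Hoxd8, 68.3% for Hoxd9 and 62.7% for Hoxd10. RefSeq promoters were given for 22 of the 38 Hox genes, as 24 windows, and 6 of these 24 (25.0%) held ATTGAT, against 7.54% of all 32851 promoter windows. The 6 belonged to Hoxa2, Hoxa10, Hoxb8, Hoxd4, Hoxd8 and Hoxd11. TTTATG was in 20.8% of the Hox windows and 11.9% of all windows, TGACAG in 8.33% and 19.2%, and TGATNNAT in 16.7% and 8.85%. A match is a match of letters and was not tested as a binding site.

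The second place is the miRNA genes inside the clusters, shown because the transcript of Hoxb8, a gene with a low level described further on, carries a long match to one of them. A link between the match and the level was not tested. The miR-10 genes lie next to the Hox4 genes and the miR-196 genes next to the Hox9 genes. The mature sequences (RefSeq) are given 5′ to 3′ with the seed, bases 2 to 8, in capitals.
miR-10a-5p: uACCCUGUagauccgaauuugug
miR-10b-5p: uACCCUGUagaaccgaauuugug
miR-196a-5p: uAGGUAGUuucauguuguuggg
miR-196b-5p: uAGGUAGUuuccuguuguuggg
The miR-10 pair shares 1 seed and the miR-196 pair shares another. Among the 38 Hox transcripts (the longest protein-coding transcript of each gene in GENCODE M21), the stretch after the coding sequence that paired best with miR-196a was in Hoxb8, at chr11:96284888-96284909 (GRCm38, plus strand). It is shown with paired bases in capitals.
Hoxb8: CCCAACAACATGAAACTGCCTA
All 22 bases were paired, 21 by Watson-Crick pairs and 1 by a G:U pair at position 5 of the miRNA, counted from its 5′ end. The next best stretch, in Hoxa10, had 19 paired bases, of which 8 were G:U pairs. Exact matches to the miR-196 seed were found after the coding sequence of 8 Hox genes: Hoxa4, Hoxa5, Hoxa7, Hoxa9, Hoxb1, Hoxb6, Hoxb7 and Hoxc8. Matches to the miR-10 seed were found in 3 Hox genes: Hoxa3, Hoxb3 and Hoxd1. These libraries do not measure the miRNAs: the hairpin bins of Mir10a, Mir10b, Mir196a-1, Mir196a-2 and Mir196b held 5, 21, 34, 7 and 57 counts over all 10 samples.

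**Figure D1:**
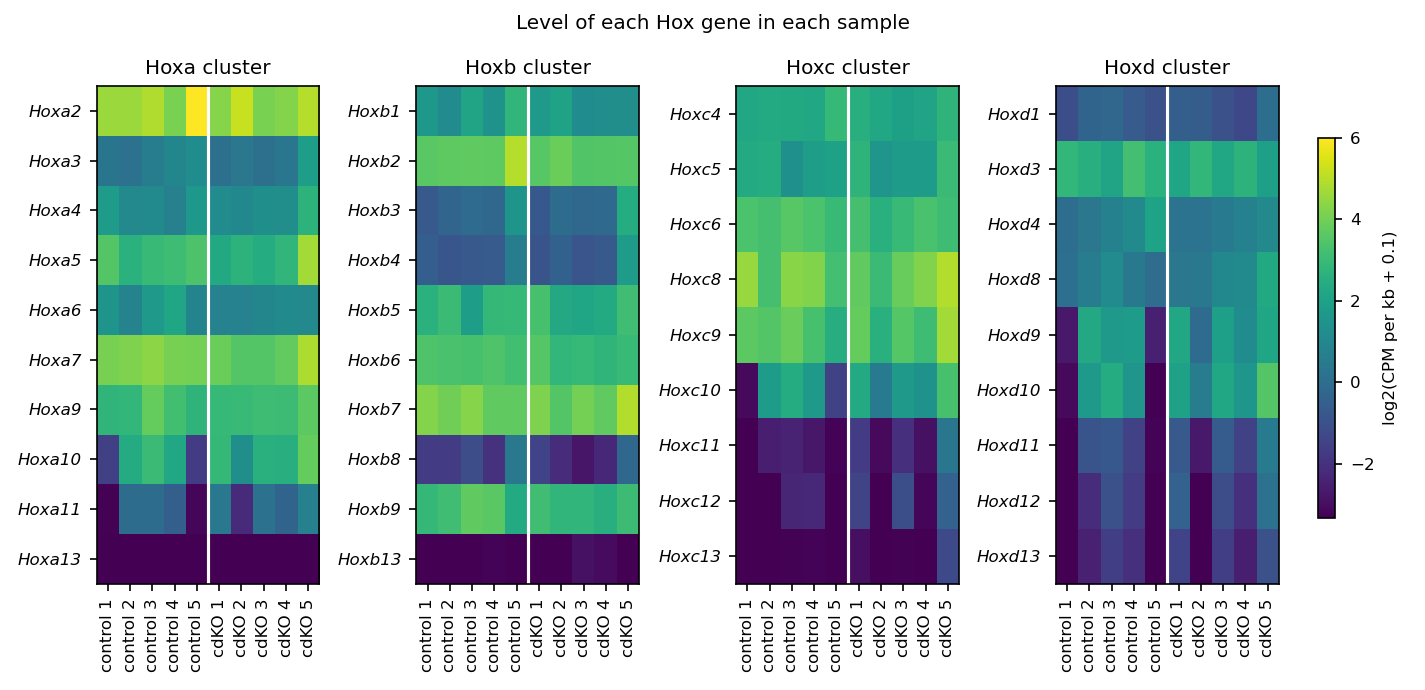
Level of each of the 38 Hox genes (rows, by cluster and paralog group) in each of the 10 samples (columns, controls left of the white line), as log2(CPM per kb + 0.1). Controls 1 and 5 are dark from Hoxa10, Hoxc10 and Hoxd9 onward, and Hoxb8 is dark between Hoxb7 and Hoxb9.

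Per kb, the highest Hox gene was Hoxa2, a regulator of hindbrain segments, with a median over samples of 23.9 CPM per kb (range 17.4 to 65.9). It was followed by Hoxa7, Hoxc8 and Hoxb7, whose medians were 16.7, 16.4 and 16.2 CPM per kb. Hoxa2 was above Hoxa7 in 10 of 10 samples, whereas Hoxa7 was above Hoxc8 in 5 of 10. The ranges of each pair of neighbours in the order of medians overlapped, down to the genes without counts, so the order is one of medians only. At the low end, Hoxb8, Hoxd12, Hoxd13, Hoxc11, Hoxc12, Hoxc13 and Hoxb13 had medians of 0.216 CPM per kb or less. Hoxa13 had 0 counts in all 10 samples, which allows up to 0.0285 to 0.0587 CPM per library.

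The highest gene of each cluster per kb was present at a similar order of magnitude in all samples. Hoxa2 was 42.3, 42.5, 52.4, 31.0 and 117 CPM in controls 1 to 5 and 35.1, 65.7, 30.8, 34.1 and 54.9 CPM in cdKO 1 to 5. Hoxb7, a gene of the brachial and thoracic cord, was 29.4, 24.5, 30.2, 20.2 and 20.1 CPM in controls 1 to 5 and 28.4, 17.2, 25.5, 20.1 and 46.6 CPM in cdKO 1 to 5. Control 5 was the highest sample for Hoxa2 and cdKO 5 for Hoxb7, and for both genes the groups overlapped. Hoxc8, which acts in caudal brachial MNs, was 66.9, 26.4, 57.0, 53.1 and 26.0 CPM in controls 1 to 5 and 36.8, 23.1, 40.4, 52.6 and 85.7 CPM in cdKO 1 to 5. Hoxd3, the highest Hoxd gene per kb, was 27.1, 21.2, 16.3, 34.9 and 23.0 CPM in controls 1 to 5 and 17.1, 27.3, 17.3, 24.1 and 14.2 CPM in cdKO 1 to 5. Hoxc8 was lowest in cdKO 2 and controls 2 and 5, and Hoxd3 was highest in control 4 and lowest in cdKO 5. The fitted differences were -0.37 ± 0.38 (SE) for Hoxa2, 0.15 ± 0.31 (SE) for Hoxb7, 0.06 ± 0.39 (SE) for Hoxc8 and -0.29 ± 0.30 (SE) for Hoxd3 on the log2 scale, with adjusted p-values of 0.995, 0.995, 0.998 and 0.995.

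By paralog group, the summed CPM was highest in group 2 or group 9 in all 10 samples and dropped steeply beyond group 9. Group 2 (Hoxa2 and Hoxb2) was 84.3, 87.3, 98.2, 75.4 and 225 CPM in controls 1 to 5 and 76.0, 118, 68.7, 73.7 and 95.3 CPM in cdKO 1 to 5. Control 5 was above all other samples there. Group 1, reported here from Hoxb1 and Hoxd1, was 7.70, 6.36, 11.2, 7.23 and 16.7 CPM in controls 1 to 5 and 8.37, 10.4, 5.95, 5.96 and 7.20 CPM in cdKO 1 to 5, again with control 5 highest. Groups 3 to 8 ranged over samples from 25.1 to 58.2, 18.2 to 40.9, 32.0 to 96.6, 29.8 to 50.2, 50 to 129 and 26.8 to 102 CPM respectively. In these groups cdKO 5 was the highest sample in groups 3, 4, 5, 7 and 8 and control 3 in group 6. Group 9, with a member in each cluster, was 86.7, 100, 154, 113 and 63.6 CPM in controls 1 to 5 and 108.3, 77.01, 102, 87.0 and 164 CPM in cdKO 1 to 5.

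**Figure D2:**
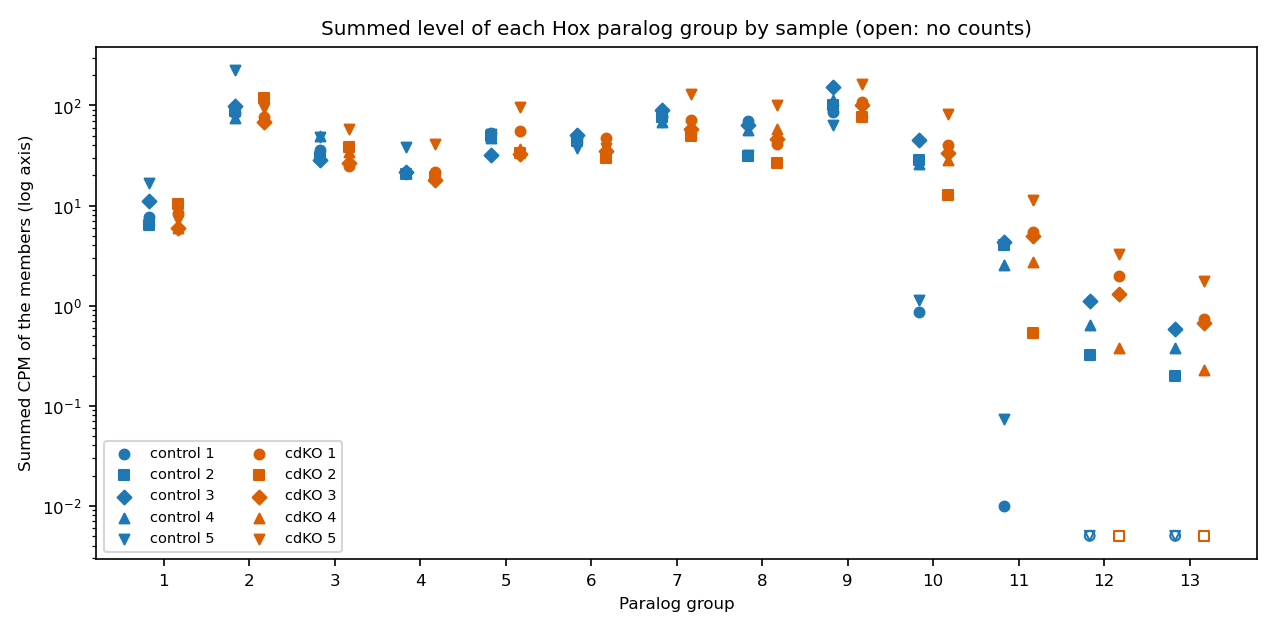
Summed CPM of the Hox genes of each paralog group (x axis, 1 to 13) in each sample on a log axis, with controls in blue, cdKO samples in orange, a marker shape per replicate number and open markers for samples with no counts. Controls 1 and 5 lie at 86.7 and 63.6 CPM in group 9 and at 0.856 and 1.14 CPM in group 10, where all other samples lie at 12.7 CPM or more.

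From group 10 on the samples separated. Group 10 was 0.856, 28.6, 45.5, 26.2 and 1.14 CPM in controls 1 to 5 and 39.9, 12.7, 33.5, 28.4 and 82.1 CPM in cdKO 1 to 5. Controls 1 and 5 were far below all other samples, cdKO 2 was the lowest of the rest, and cdKO 5 was the highest. Group 11 was 0.00996, 4.003, 4.29, 2.53 and 0.0733 CPM in controls 1 to 5 and 5.39, 0.531, 4.97, 2.73 and 11.5 CPM in cdKO 1 to 5, in nearly the same order. Groups 12 and 13 reached at most 3.27 and 1.76 CPM, both in cdKO 5, and had no counts in control 1, control 5 or cdKO 2. The share of all Hox CPM in groups 10 to 13 was 0.178, 6.91, 8.57, 5.73 and 0.209% in controls 1 to 5 and 9.56, 3.18, 9.35, 7.10 and 11.9% in cdKO 1 to 5. The share in groups 1 to 3 was 26.4, 25.9, 23.0, 25.5 and 49.8% in controls 1 to 5 and 21.8, 39.9, 23.4, 25.6 and 19.4% in cdKO 1 to 5, with the highest shares in control 5 and cdKO 2. The summed Hox CPM of all groups was 486, 480, 601, 518 and 581 CPM in controls 1 to 5 and 503, 416, 433, 447 and 829 CPM in cdKO 1 to 5, so that controls 1 and 5 were not low in Hox RNA as a whole.

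The caudal end of each cluster can also be read from the most 5′ gene at 0.5 CPM per kb or more. In the Hoxa cluster this was Hoxa9 in controls 1 and 5, Hoxa10 in cdKO 2 and Hoxa11 in the other 7 samples. In the Hoxc cluster it was Hoxc9 in controls 1 and 5, Hoxc12 in cdKO 5 and Hoxc10 elsewhere. In the Hoxd cluster it was Hoxd8 in controls 1 and 5, and Hoxd10, Hoxd11 or Hoxd12 in the others. In the Hoxb cluster, whose only gene past group 9 is Hoxb13, it was Hoxb9 in all 10 samples. The samples had 23 to 34 Hox genes at this level, with 23 in control 1, 24 in control 5, 34 in cdKO 5 and 28 or 29 in the other 7.

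The 4 genes of paralog group 9 did not behave alike. Hoxa9 was 37.6, 39.5, 77.9, 50.4 and 36.7 CPM in controls 1 to 5 and 42.3, 42.7, 47.9, 46.7 and 69.7 CPM in cdKO 1 to 5. Hoxb9 was 18.8, 22.6, 34.2, 31.1 and 13.2 CPM in controls 1 to 5 and 22.5, 17.9, 17.9, 15.0 and 21.2 CPM in cdKO 1 to 5. Hoxc9, which in the thoracic cord represses the limb-level Hox genes, was 30.2, 27.5, 34.9, 23.7 and 13.5 CPM in controls 1 to 5 and 33.8, 14.6, 27.8, 20.6 and 63.1 CPM in cdKO 1 to 5. All 3 were present in every sample, with control 5 lowest. Hoxd9 was 0.120, 10.4, 6.79, 7.23 and 0.161 CPM in controls 1 to 5 and 9.71, 1.82, 7.88, 4.71 and 9.58 CPM in cdKO 1 to 5. Controls 1 and 5 were thus at 0.120 and 0.161 CPM where the other controls held 6.79 to 10.4 CPM, although Hoxd8, the next gene in the cluster, was present there. Hoxd8 was 2.61, 3.98, 5.93, 3.49 and 2.52 CPM in controls 1 to 5 and 3.25, 3.35, 5.33, 5.80 and 13.8 CPM in cdKO 1 to 5. The means were 4.94 ± 4.6 CPM in the controls and 6.74 ± 3.41 CPM in the cdKO samples (mean ± SD, n = 5 each) for Hoxd9. The fitted difference was 0.45 ± 0.91 (SE) for Hoxd9, 0.04 ± 0.29 (SE) for Hoxa9, -0.35 ± 0.30 (SE) for Hoxb9, 0.30 ± 0.39 (SE) for Hoxc9 and 0.76 ± 0.44 (SE) for Hoxd8 on the log2 scale, each with an adjusted p of 0.957 or more.

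The group 10 genes, which together set lumbar MN identity, had nearly the same order of samples. Hoxa10 was 0.796, 17.0, 26.6, 15.4 and 0.703 CPM in controls 1 to 5 and 23.9, 7.86, 19.4, 18.7 and 44.7 CPM in cdKO 1 to 5. Hoxc10 was 0.0299, 5.96, 9.25, 5.62 and 0.440 CPM in controls 1 to 5 and 8.94, 2.29, 5.59, 4.54 and 16.9 CPM in cdKO 1 to 5. Hoxd10 was 0.0299, 5.67, 9.69, 5.13 and 0 CPM in controls 1 to 5 and 7.10, 2.54, 8.49, 5.17 and 20.5 CPM in cdKO 1 to 5. The 3 genes lie on chromosomes 6, 15 and 2, and in each of them controls 1 and 5 were the lowest samples, cdKO 2 came next and cdKO 5 was the highest. The group means were 12.1 ± 11.2 CPM in the controls and 22.9 ± 13.5 CPM in the cdKO samples (mean ± SD, n = 5 each) for Hoxa10, 4.26 ± 3.94 CPM in the controls and 7.65 ± 5.69 CPM in the cdKO samples (mean ± SD, n = 5 each) for Hoxc10 and 4.10 ± 4.13 CPM in the controls and 8.77 ± 6.95 CPM in the cdKO samples (mean ± SD, n = 5 each) for Hoxd10. The SD was thus near the mean in the controls of all 3 genes. The fitted differences were 0.92 ± 0.81 (SE), 0.84 ± 0.93 (SE) and 1.09 ± 1.13 (SE) on the log2 scale for Hoxa10, Hoxc10 and Hoxd10, with adjusted p-values of 0.995, 0.995 and 0.995, so that none passed the test.

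**Figure D3:**
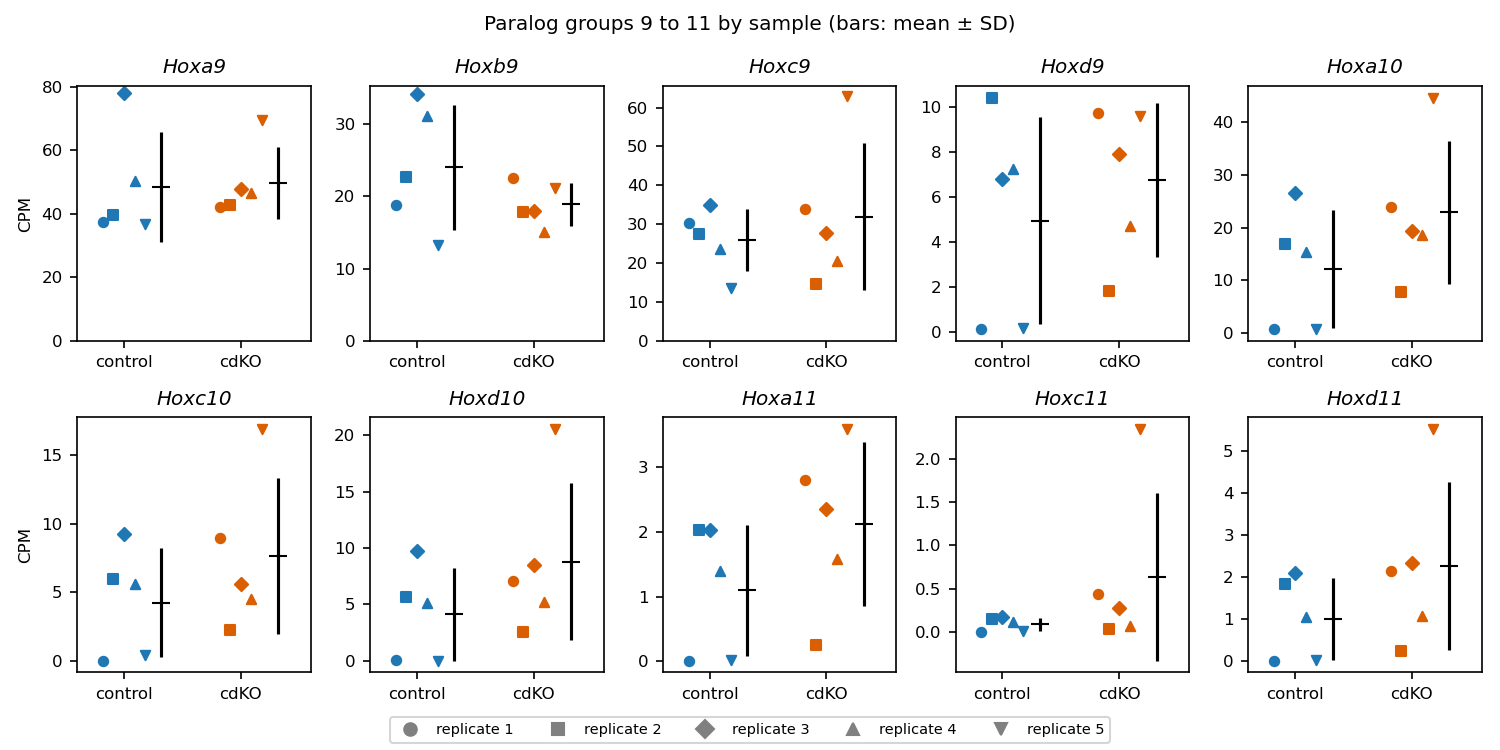
CPM of the 10 Hox genes of paralog groups 9 to 11 in each control (blue) and cdKO sample (orange), with the replicate number as marker shape and the group mean ± SD as a black bar (n = 5 each). Controls 1 and 5 sit near 0 in Hoxd9 and in all genes of groups 10 and 11, and the groups overlap in every gene.

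Hoxa11, Hoxc11 and Hoxd11 of group 11 were lower. Hoxa11 was 0.00996, 2.03, 2.02, 1.39 and 0.0293 CPM in controls 1 to 5 and 2.79, 0.260, 2.35, 1.58 and 3.58 CPM in cdKO 1 to 5. Hoxd11 was 0, 1.84, 2.10, 1.04 and 0.0293 CPM in controls 1 to 5 and 2.15, 0.236, 2.34, 1.08 and 5.54 CPM in cdKO 1 to 5. In both genes control 1, control 5 and cdKO 2 were the 3 lowest samples. Hoxc11 was 0, 0.143, 0.169, 0.108 and 0.0147 CPM in controls 1 to 5 and 0.441, 0.0354, 0.280, 0.0709 and 2.35 CPM in cdKO 1 to 5. For Hoxc11 a single sample, cdKO 5, stood above 0.441 CPM. Of groups 12 and 13, Hoxd12 reached 2.58 CPM and Hoxd13 0.978 CPM, while Hoxc12, Hoxc13 and Hoxb13 stayed at or below 0.684, 0.782 and 0.0731 CPM and did not pass the filter. Hoxd12 was 0, 0.323, 1.02, 0.525 and 0 CPM in controls 1 to 5 and 1.69, 0, 0.914, 0.367 and 2.58 CPM in cdKO 1 to 5, and Hoxd13 was 0, 0.1997, 0.575, 0.350 and 0 CPM in controls 1 to 5 and 0.667, 0, 0.585, 0.177 and 0.978 CPM in cdKO 1 to 5.

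None of the 34 tested Hox genes changed between control and cdKO at an adjusted p under 0.05 (edgeR), and of all genes tested 0.0% were called. Oc1 and Oc3, read above as the check of the genotype, were not called either (adjusted p = 0.937 and 0.1115, edgeR). The absence of a call therefore does not show the absence of a change. DESeq2 and limma-voom with sample quality weights also called 0 Hox genes, with 19 and 13 calls among all genes. At an unadjusted p under 0.05, 1 Hox gene was higher in the cdKO samples, against a background of 4.18% of all genes tested, and 0 were lower, against 0.818%. The 1 gene was Hoxc11, with a log2 fold change of 2.82 ± 1.14 (SE), an unadjusted p of 0.0272 and an adjusted p of 0.937. Without cdKO 5 its log2 fold change was 1.23 (unadjusted p = 0.231), and without control 4 or control 5 its unadjusted p was 0.0505 or 0.0577. With limma-voom and sample weights, 0 Hox genes were higher and 7 were lower at an unadjusted p under 0.05, where 838 of all 17859 genes were higher and 697 lower. Without cdKO 5, 0 Hox genes were higher and 3 lower, where 107 of 18182 genes were higher and 321 lower. No Hox gene had groups that did not overlap, where 0.179% of all genes tested lay wholly higher and 0.224% wholly lower in the cdKO samples.

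The fitted differences are given next by paralog group. All 8 tested genes of groups 10 to 13 had a log2 fold change above 0, with a median of 1.09, and none of them passed the adjusted threshold. In groups 4 to 9 the median was 0.04, with 11 genes above 0 and 8 below. In groups 1 to 3 it was -0.29, with 3 above and 4 below. The median of all genes tested was -0.02. Without cdKO 5 the median of the 8 genes was 0.59. The 8 caudal genes followed the same samples, so that they are not 8 independent observations. Without controls 1 and 5, left out together after their values had been seen, the 8 genes kept a log2 fold change above 0, with a median of 0.35. By summed CPM, the difference of group 10 was 1.82 on the log2(CPM + 0.5) scale with all samples and 0.03 without controls 1 and 5 (1.11 without control 1 alone and 1.18 without control 5 alone), and that of group 11 was 1.21 and 0.06. With sample quality weights in limma-voom, 6 of the 8 genes kept a log2 fold change above 0.

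**Figure D4:**
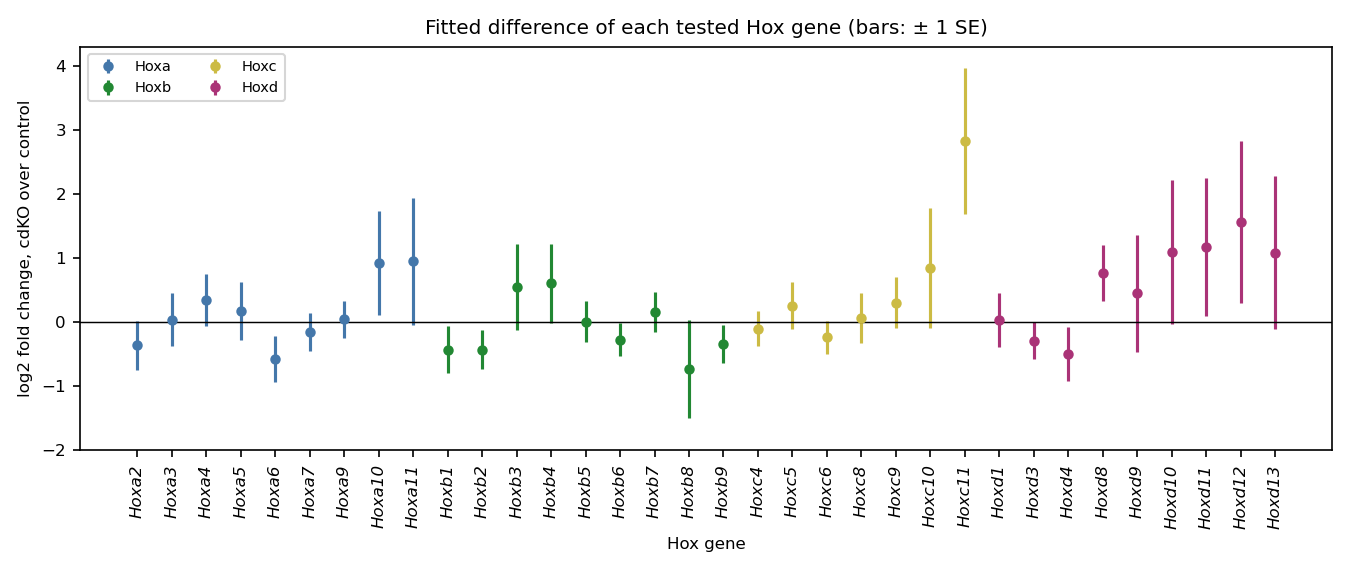
Fitted log2 fold change of cdKO over control (y axis) with 1 SE on either side for each of the 34 tested Hox genes (x axis), coloured by cluster. Hoxc11 has the largest value, 2.82, and the bars are widest for the genes past group 9, Hoxd9 and Hoxb8.

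The high values of cdKO 5 lay mostly at the 3′ ends of the transcripts. Of the 34 tested Hox genes, cdKO 5 was the highest sample in 20, among them all 8 of groups 10 to 13. When only the last bin of at least 100 bases of each gene was read, it was highest in 28 of 34 genes, and when only the first such bin was read, in 10 of 34. For the genes of groups 10 to 13 these counts were 8 of 8 in the last bin and 2 of 8 in the first. Hoxc10 had a first bin of 647 bases with 0.0199, 2.97, 4.78, 2.85 and 0.249 CPM in controls 1 to 5 and 4.80, 1.24, 2.88, 2.33 and 4.596 CPM in cdKO 1 to 5. Its last bin, of 1096 bases, had 0.00996, 2.995, 4.47, 2.77 and 0.191 CPM in controls 1 to 5 and 4.14, 1.05, 2.72, 2.21 and 12.3 CPM in cdKO 1 to 5. In the first bin cdKO 5 was thus below cdKO 1 and control 3, and in the last it was the highest by more than the whole range of the others. Among 23 Hox genes with over 20 counts in both bins together in every sample, the median share of the last bin was 92.2% in cdKO 5 and 84.8% to 87.3% in the others. The part of this 3′ shift in the differences was not tested.

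**Figure D5:**
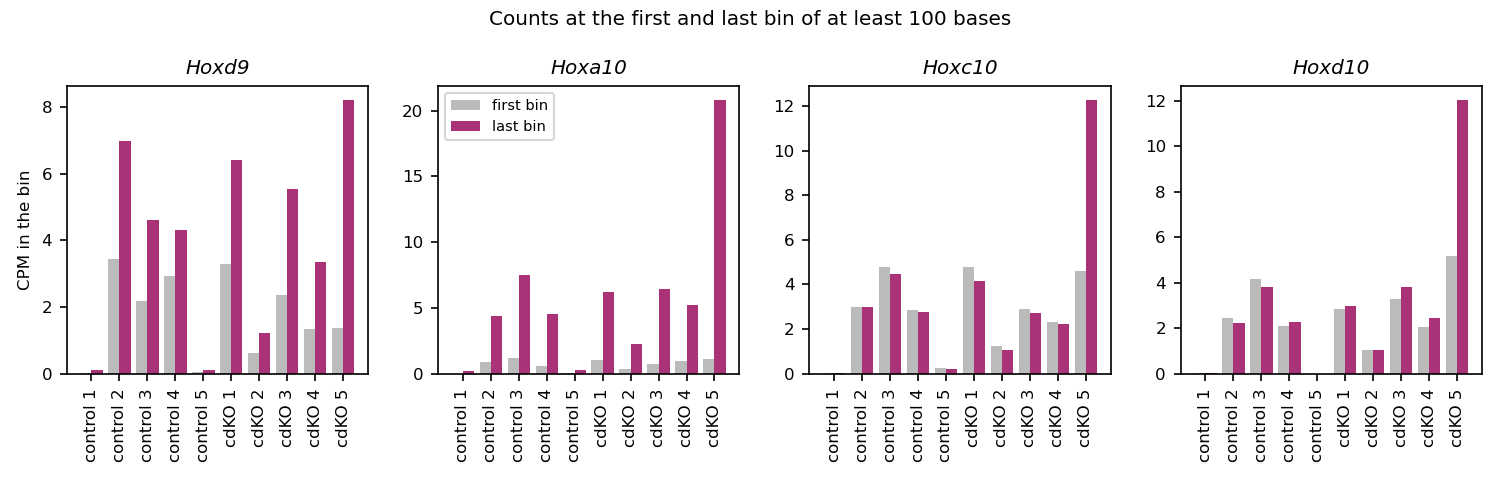
CPM in the first bin (grey) and the last bin (purple) of at least 100 bases of Hoxd9, Hoxa10, Hoxc10 and Hoxd10 in each sample. In cdKO 5 the last bin of Hoxc10 reached 12.3 CPM and the first 4.596 CPM, while the bars of both bins were near 0 in controls 1 and 5 in all 4 genes.

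In the Hoxb cluster, Hoxb3 and Hoxb4 had medians of 0.806 and 0.527 CPM per kb, below Hoxb2 and Hoxb5 at 12.4 and 6.75. Hoxb8, between Hoxb7 and Hoxb9, was lower still. Its counts were 0.577, 0.561, 0.947, 0.404 and 3.27 CPM in controls 1 to 5 and 0.705, 0.342, 0.122, 0.272 and 2.03 CPM in cdKO 1 to 5, whereas Hoxb7 and Hoxb9 on either side held 17.2 to 46.6 and 13.2 to 34.2 CPM. Per kb the medians were 0.216 CPM for Hoxb8, 16.2 for Hoxb7 and 7.77 for Hoxb9. Its group 8 paralogs Hoxc8 and Hoxd8 had medians of 16.4 and 1.36 CPM per kb. Control 5 and cdKO 5 were the only samples above 0.947 CPM. The fitted difference was -0.74 ± 0.77 (SE) (adjusted p = 0.995). Without cdKO 5 it was -1.64 (unadjusted p = 0.0382), and without control 5 it was 0.14.

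Control 5 was the highest sample for several 3′ Hox genes, though not for most. Of the 7 genes of groups 1 to 3, it was highest in 3, cdKO 5 in 3 and control 4 in 1. Hoxb1, which marks the hindbrain segment of the facial MNs, was 6.998, 5.06, 9.85, 6.22 and 16.0 CPM in controls 1 to 5 and 7.24, 9.32, 5.20, 5.39 and 5.46 CPM in cdKO 1 to 5. Hoxb2 was 42.0, 44.7, 45.8, 44.4 and 107.8 CPM in controls 1 to 5 and 40.9, 51.9, 37.9, 39.6 and 40.4 CPM in cdKO 1 to 5. Hoxd4 was 2.38, 3.06, 4.17, 5.37 and 10.7 CPM in controls 1 to 5 and 2.72, 2.74, 3.34, 4.14 and 5.14 CPM in cdKO 1 to 5. In all 3 genes control 5 was the highest sample, above the next by more than the whole range of the other 9. The fitted differences were -0.44 ± 0.36 (SE), -0.44 ± 0.31 (SE) and -0.51 ± 0.42 (SE) on the log2 scale (adjusted p = 0.995, 0.993 and 0.995). For all 3 genes the groups overlapped.

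A different set was highest in cdKO 5. Hoxa5, a regulator of phrenic MNs, was 20.9, 11.5, 14.7, 16.1 and 19.6 CPM in controls 1 to 5 and 9.35, 12.0, 10.2, 12.9 and 48.6 CPM in cdKO 1 to 5. Hoxb4 was 1.51, 1.21, 1.32, 1.39 and 3.62 CPM in controls 1 to 5 and 1.13, 1.63, 1.16, 1.30 and 8.55 CPM in cdKO 1 to 5. For both, cdKO 5 exceeded each other sample by more than a doubling of the level, and the other 4 cdKO samples lay within or below the range of the controls. Without cdKO 5 the log2 fold change of Hoxa5 was -0.57 (unadjusted p = 0.0404) where it was 0.17 with all samples, and that of Hoxb4 was -0.45 where it was 0.60. Hoxa7 was 48.3, 52.3, 59.4, 48.9 and 47.8 CPM in controls 1 to 5 and 42.9, 32.8, 32.4, 39.0 and 82.8 CPM in cdKO 1 to 5. Its log2 fold change was -0.16 with all samples and -0.48 without cdKO 5 (unadjusted p = 0.0340).

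The remaining genes of groups 4 to 6 were present in all samples. Hoxa6 was 2.38, 1.49, 2.80, 3.83 and 1.51 CPM in controls 1 to 5 and 1.44, 1.43, 1.62, 1.80 and 1.76 CPM in cdKO 1 to 5. Control 4 was the highest sample, and the groups overlapped. Hoxb6 was 21.1, 19.7, 19.1, 20.8 and 17.4 CPM in controls 1 to 5 and 23.0, 14.02, 14.7, 13.4 and 15.6 CPM in cdKO 1 to 5, with cdKO 1 and the controls other than control 5 at 19.1 CPM or more and the other 5 samples at 17.4 CPM or less. The remaining brachial genes ranged over the samples from 10.2 to 27.1 CPM for Hoxb5, 9.83 to 19.1 CPM for Hoxc4, 7.12 to 23.8 CPM for Hoxc5 and 14.4 to 28.3 CPM for Hoxc6, and the rostral gene Hoxd1 from 0.567 to 1.74 CPM. These 4 brachial genes with Hoxa6 and Hoxb6 had log2 fold changes between -0.58 and 0.25 and adjusted p-values of 0.962 or more.

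Reads were counted without strand, so genes with an antisense partner cannot be told apart from it where their exons overlap. The share of a gene's counts on bins covered by a gene of the opposite strand was 93.8% for Hoxa4, 90.8% for Hoxb2, 82.0% for Hoxa3, 80.6% for Hoxb3, 58.5% for Hoxb5, 33.1% for Hoxa11, 20.4% for Hoxa7 and 4.25% for Hoxd3. In all other tested Hox genes it was 0. The partners were Hoxb3os for Hoxb2 and Hoxb3, Hoxb5os for Hoxb5, Hoxa11os for Hoxa11, Haglr for Hoxd3, and Gm29430 for Hoxa4, Hoxaas3 for Hoxa7 and mainly Hoxaas2 and Hoxaas3 for Hoxa3. These shares count the opposite strand only, and a bin can also be shared with other genes. On bins of a single gene the median over samples was 5.74 CPM for Hoxd3, against 22.1 CPM over all its bins. It was 31.5 against 42.4 CPM for Hoxa2 and 2.37 against 3.74 CPM for Hoxd4. The medians of Hoxd10 and Hoxd11 were also lower on such bins. The part of other genes in these levels was not tested. On bins of Hoxb2 alone the level was 3.58, 4.497, 4.59, 4.02 and 8.94 CPM in controls 1 to 5 and 3.60, 5.86, 3.45, 3.90 and 2.11 CPM in cdKO 1 to 5, with control 5 still highest. Hoxb3 was 2.17, 3.11, 3.60, 3.38 and 11.7 CPM in controls 1 to 5 and 2.06, 3.74, 3.27, 3.48 and 22.6 CPM in cdKO 1 to 5 over all bins. On its own bins it was 0.339, 0.960, 1.11, 1.10 and 1.38 CPM in controls 1 to 5 and 0.441, 0.979, 1.24, 1.09 and 1.51 CPM in cdKO 1 to 5. The high value of cdKO 5 in Hoxb3 thus lay on bins shared with Hoxb3os. These include the last bin of Hoxb3, with 19.97 CPM in cdKO 5, so its own bins leave out its 3′ end. Hoxa3 was 6.90, 6.29, 8.77, 11.01 and 13.5 CPM in controls 1 to 5 and 5.94, 7.24, 5.93, 7.02 and 21.4 CPM in cdKO 1 to 5 over all bins. On its own bins Hoxa3 was 0.687, 1.24, 1.05, 2.80 and 1.55 CPM in controls 1 to 5 and 0.743, 0.932, 0.902, 1.45 and 0.469 CPM in cdKO 1 to 5, and cdKO 5 was the lowest sample there. The last bin of Hoxa3, with 12.71 CPM in cdKO 5, is likewise not among its own bins. The parts of antisense RNA and of the 3′ shift in these values of cdKO 5 were not tested. Hoxa4, with most of its counts on shared bins, was 5.36, 3.19, 3.24, 2.53 and 4.88 CPM in controls 1 to 5 and 3.46, 3.08, 3.85, 3.72 and 10.3 CPM in cdKO 1 to 5, again highest in cdKO 5. Hoxa11 on its own bins was 0.00996, 1.36, 1.22, 0.875 and 0 CPM in controls 1 to 5 and 1.88, 0.130, 1.26, 1.08 and 3.27 CPM in cdKO 1 to 5, with the same samples near 0. The fitted differences over all bins were 0.03 ± 0.41 (SE) for Hoxa3, 0.35 ± 0.41 (SE) for Hoxa4 and 0.55 ± 0.67 (SE) for Hoxb3 on the log2 scale, with adjusted p-values of 0.998, 0.995 and 0.995. A bin shared by Hoxd3 and Hoxd4 (chr2:74711929-74712316, GRCm38) and a bin shared by Hoxc5 and Hoxc10 (chr15:102967443-102967608) could not be given to 1 gene and were left out, with 1005 and 1221 counts over all samples.

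Between the outermost Hox genes of the 4 clusters the annotation holds 35 noncoding genes with a place in the counts, and 18 passed the filter. None passed the adjusted threshold, none had an unadjusted p under 0.05 (0 higher, 0 lower), and their median log2 fold change was 0.37. For this list and those that follow, the background at that p was 4.18% of all genes tested higher and 0.818% lower. Per kb the highest was Hoxb5os, followed by Gm27477 and Hotairm1, a transcript of the 3′ end of the Hoxa cluster. Hoxb5os was 40.4, 62.4, 61.8, 46.3 and 72.5 CPM in controls 1 to 5 and 59.0, 61.2, 60.7, 46.5 and 155 CPM in cdKO 1 to 5. Hotairm1 was 6.60, 10.2, 9.69, 6.47 and 10.96 CPM in controls 1 to 5 and 6.55, 9.01, 8.55, 6.50 and 25.5 CPM in cdKO 1 to 5. In both cdKO 5 was the highest sample. Hoxa11os, antisense to Hoxa11, was 0, 4.29, 5.79, 2.49 and 0.0293 CPM in controls 1 to 5 and 10.6, 0.590, 7.45, 3.38 and 12.5 CPM in cdKO 1 to 5, with control 1, control 5 and cdKO 2 lowest as for Hoxa11. Hotair, in the Hoxc cluster, reached at most 0.724 CPM and did not pass the filter.

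The Hox cofactors were present in all samples. All 9 genes of the list, from the PBC and Meis families, were tested, of which 0 passed the adjusted threshold and 0 had an unadjusted p under 0.05 in either direction, with a median log2 fold change of -0.05. Meis3 was the highest per kb, with 679, 827, 521, 605 and 328 CPM in controls 1 to 5 and 1057, 439, 706, 589 and 343 CPM in cdKO 1 to 5. Meis1 and Meis2 ranged over samples from 87.9 to 263 and 72.2 to 136 CPM. The fitted differences were 0.08 ± 0.35 (SE) for Meis3, -0.14 ± 0.30 (SE) for Meis1 and -0.17 ± 0.27 (SE) for Meis2 on the log2 scale.

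Of 23 listed regulators of Hox genes, 20 were tested and 0 passed the adjusted threshold. At an unadjusted p under 0.05, 1 was higher and 1 lower, where 4.18% of all genes tested were higher and 0.818% lower. Rarg, a retinoic acid receptor, was 0.358, 0.152, 0.0677, 0.0135 and 0.0440 CPM in controls 1 to 5 and 0.642, 0.460, 0.402, 0.118 and 0.978 CPM in cdKO 1 to 5 (log2 fold change 1.99 ± 0.78 (SE), unadjusted p = 0.0236, adjusted p = 0.937). The groups overlapped. The highest per kb were Rnf2, Eed and Ezh2 of the Polycomb complexes, with log2 fold changes of -0.22, -0.47 and -0.24. Cdx1, Cdx2 and Cdx4, caudal activators of Hox clusters, reached at most 0.133, 0.395 and 0.864 CPM and did not pass the filter.

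The list of MN genes known to depend on Hox factors held 8 genes. All 8 were tested, of which 0 passed the adjusted threshold and 0 had an unadjusted p under 0.05 in either direction, with a median log2 fold change of -0.12. Aldh1a2, the retinoic acid synthesis enzyme of limb-level MNs, was 83.8, 39.8, 29.1, 35.5 and 0.147 CPM in controls 1 to 5 and 75.3, 3.66, 27.2, 9.40 and 32.3 CPM in cdKO 1 to 5. Control 1 was the highest sample and control 5 the lowest, although both were low in the group 10 genes. Foxp1, a marker of the lateral motor column, was 141, 52.4, 89.9, 92.1 and 43.8 CPM in controls 1 to 5 and 43.5, 52.9, 55.9, 61.2 and 65.7 CPM in cdKO 1 to 5, and Gfra1, a GDNF co-receptor, was 34.1, 36.2, 32.1, 48.2 and 10.8 CPM in controls 1 to 5 and 35.2, 28.9, 38.4, 37.5 and 16.5 CPM in cdKO 1 to 5. Foxp1 was highest in control 1, and Gfra1 was highest in control 4 and lowest in control 5. Their fitted differences were -0.59 ± 0.32 (SE) and -0.05 ± 0.37 (SE) on the log2 scale (adjusted p = 0.940 and 0.998).

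Markers of other cells and levels were read beside the Hox genes. The 5 hindbrain genes, summed, were 86.0, 59.2, 12.9, 32.7 and 77.9 CPM in controls 1 to 5 and 41.0, 77.4, 57.6, 82.9 and 70.8 CPM in cdKO 1 to 5. Controls 1 and 5 were the highest controls in this sum and the cdKO samples other than cdKO 1 lay between 57.6 and 82.9 CPM. The 3 V3 and p3 markers summed to 21.1 to 98.9 CPM in the controls and 18.3 to 38.3 CPM in the cdKO samples, with the highest value in control 5. Of that sum 83.8 CPM was Nkx2-9, while Sim1, the V3 marker of the list, was lowest in control 5, at 0.147 CPM against 0.661 to 4.79 CPM in the other 9 samples. The 12 mesenchyme markers summed to 13.9 to 26.6 CPM in the controls and 16.5 to 30.5 CPM in the cdKO samples, with 2 of 10 tested higher at an unadjusted p under 0.05 (Twist1 and Col1a2). The limb mesenchyme genes Tbx4 and Tbx5 were at 0 counts in all samples, except for 0.0118 CPM of Tbx4 in cdKO 4. The 6 erythroid markers summed to 0.864 to 18.4 CPM in the controls and 2.57 to 62.7 CPM in the cdKO samples, with cdKO 5 highest and 1 of 5 tested higher at an unadjusted p under 0.05 (Hba-a1). At the same p, 1 of 8 MN markers (Isl1) and 1 of 5 hindbrain markers were lower. Of all genes tested, 4.18% were higher and 0.818% lower at that p. The 4 endothelial markers summed to 0.922 to 3.22 CPM in the controls and 0.931 to 2.07 CPM in the cdKO samples, the 6 neural crest markers to 17.4 to 46.5 CPM in the controls and 8.57 to 32.7 CPM in the cdKO samples and the 8 tailbud markers to 3.85 to 5.83 CPM in the controls and 2.00 to 4.44 CPM in the cdKO samples. The 6 forebrain and midbrain markers stayed at or below a sum of 0.528 CPM, with Otx2 at 0 counts in all samples. The part of these cells in the Hox levels was not tested.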

How the data were processed

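RNA-seq of the 10 samples was analysed from the tables the authors deposited, which hold read counts per exon bin, 425461 bins in all. Per the submitters' processing notes, the tools were bcl2fastq 2.17, Trimmomatic 0.36, STAR 2.5.2b, Subread 1.5.2 and DESeq2, and the build was GRCm38. The deposited counts are not strand-specific, and reads that span several bins count on each, so gene totals exceed numbers of fragments. Bins were given to genes of GENCODE M21 by gene ID and position and summed. The 1803 bins that fitted several genes equally (0.372% of counts) were left out.

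Low genes were removed with filterByExpr (minimum count 10). After TMM scaling, the quasi-likelihood test of edgeR was run on group alone, with Benjamini-Hochberg adjustment. The steps were tested on simulated data. Groups came from the labels. The members and gene lists were chosen with earlier results of these data known. All members are accounted for, and genes of the lists are named where they are highest per kb, pass the unadjusted p or carry a stated pattern. One further gene of the rule and some genes of the lists are not reported here. Alternatives were DESeq2, limma-voom with sample weights, other scalings, filters and bins, the replicate block and leaving out samples. Leaving out controls 1 and 5 together and reading first bins alone were chosen after seeing the data.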

Additional observations from a re-analysis of the deposited data

Results flagged for a closer look

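Single samples that stood apart from the rest of their own group were looked for in 94 groups of 5 samples, by the gap to the nearest sample over the range of the group (Dixon's test), and 16 were found. Chance gives about 1 in 20 for a single group. The 94 groups come from the same libraries and the sums hold the same genes. They are not independent, so 16 of 94 cannot be set against that rate. In cdKO 5, Hoxa3 was at 21.4 CPM (the other cdKO samples 5.93 to 7.24), Hoxa4 at 10.3 CPM (3.08 to 3.85), Hoxa5 at 48.6 CPM (9.35 to 12.9) and Hoxa9 at 69.7 CPM (42.3 to 47.9). In the same sample Hoxb3 was at 22.6 CPM (2.06 to 3.74), Hoxb4 at 8.55 CPM (1.13 to 1.63) and the sum of paralog group 4 at 40.9 CPM (18.2 to 21.8).

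In control 5, Hoxb2 was at 107.8 CPM (the other controls 42.0 to 45.8), Hoxb3 at 11.7 CPM (2.170 to 3.60), Hoxb4 at 3.62 CPM (1.21 to 1.51) and Hoxc4 at 19.1 CPM (11.8 to 13.3). The sum of paralog group 2 was 225 CPM there (75.4 to 98.2) and that of paralog group 4 was 38.2 CPM (20.7 to 21.6). The others were Hoxb2 at 51.9 CPM in cdKO 2 (37.9 to 40.9), Hoxb6 at 23.0 CPM in cdKO 1 (13.4 to 15.6), and the sum of paralog group 5, low in control 3 at 32.0 CPM (47.4 to 52.8). The low levels of groups 10 to 13 in controls 1 and 5 were not found this way, since 2 samples that stand apart together hide each other from this test.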

How the results depend on the processing

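No tested Hox gene passed an adjusted p of 0.05 under any alternative. The number of Hox genes at an unadjusted p under 0.05, 1 with all samples (higher), was 2 with DESeq2 (both higher), 2 without a filter (both higher), 7 with limma-voom and sample weights (all lower), 0 with at least 10 counts in every sample, 0 with the replicate block, 0 without controls 1 and 5 together, and 0 to 3 when single samples were left out, the 3 being lower and seen without cdKO 5. Among the 54 tested cofactors, regulators, noncoding genes and MN genes it was 2 with all samples, 1 with the replicate block and 1 to 3 with single samples left out. At that p, 746 of all 17859 genes were higher and 146 lower with all samples. They were 963 and 465 of 29538 with DESeq2, 1258 and 858 of 30166 without a filter, and 838 and 697 of 17859 with limma-voom. With at least 10 counts in every sample they were 769 and 109 of 14676, and with the replicate block 287 and 172 of 17859. Without controls 1 and 5 they were 356 and 139 of 18516. With single samples left out, 107 to 1139 genes were higher and 82 to 356 lower. The labels do not say that samples with the same replicate number are pairs, and the correlations of their deviations, 0.078, -0.257, 0.113, 0.321 and 0.283, exceeded 0.1 in 3 of 5, so pairing was not established. Without controls 1 and 5, the sign turned for Hoxa2 (log2 fold change 0.067), Hoxa9 (-0.17), Hoxb8 (0.10), Hoxc4 (0.019), Hoxd1 (-0.24) and Hoxd9 (-0.28). It turned with library size scaling for Hoxa3 (-0.23), Hoxa5 (-0.13), Hoxa9 (-0.15), Hoxb5 (-0.18), Hoxb7 (-0.067), Hoxc8 (-0.18) and Hoxd1 (-0.17), a scaling that moved the median of all genes from -0.02 to -0.15. It turned with limma-voom for Hoxa3 (-0.38), Hoxa5 (-0.47), Hoxa9 (-0.33), Hoxb4 (-0.079), Hoxb7 (-0.29), Hoxc8 (-0.48), Hoxc9 (-0.41), Hoxd1 (-0.49), Hoxd12 (-0.036) and Hoxd13 (-0.12), and with the replicate block for Hoxa3 (-0.11), Hoxa5 (-0.14), Hoxb5 (-0.018) and Hoxd1 (-0.018). It turned without a filter for Hoxa3 (-0.006) and Hoxb5 (-0.017), on single-gene bins for Hoxa3 (-0.69) and Hoxb5 (-0.056), and on the highest bin for Hoxb5 (-0.076), Hoxc8 (-0.18) and Hoxd1 (-0.025). With single samples left out, the ranges that crossed 0 were -0.56 to 0.068 for Hoxa2, -0.50 to 0.20 for Hoxa3, -0.12 to 0.50 for Hoxa4, -0.57 to 0.33 for Hoxa5, -0.11 to 0.25 for Hoxa9, -0.59 to 1.19 for Hoxb3, -0.45 to 1.01 for Hoxb4, -0.18 to 0.10 for Hoxb5, -0.12 to 0.28 for Hoxb7, -1.64 to 0.14 for Hoxb8, -0.22 to 0.034 for Hoxc4, -0.004 to 0.40 for Hoxc5, -0.27 to 0.23 for Hoxc8, -0.10 to 0.48 for Hoxc9 and -0.22 to 0.16 for Hoxd1. The causes were not tested. All 8 tested genes of groups 10 to 13 stayed above 0 in each alternative that tested them, except Hoxd12 and Hoxd13 with limma-voom. Past group 9 the SE of a log2 fold change was 0.812 to 1.27, which limits what 5 samples a group can show.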
